A study of Mus musculus with 8 samples.

Results

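The genes described here encode 46 nucleolar factors that make ribosomes, among 26642 genes and loci in the count table. They were chosen by symbol, and all 46 symbols were found, each on its own row, and passed the filter on low counts. Messenger RNA was sequenced from CT26, a mouse colon carcinoma line grown in serum-containing medium, as 4 libraries of cells labelled Tead1/4 knockout and 4 libraries of WT cells. No treatment is named for either genotype. The targeted genes encode TEAD transcription factors, through which the coactivators YAP and TAZ reach DNA. Neither the edited stretch of each gene nor the clonality of the knockout cells is given, and nothing states that replicates were grown separately. The p-values therefore cover the spread between these libraries alone, and that spread may be technical.

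Ribosomes are assembled in the nucleolus, where RNA polymerase I transcribes a long precursor of the ribosomal RNAs. Small nucleolar ribonucleoproteins (snoRNPs), each a guide RNA with a set of core proteins, modify this precursor: those of the box C/D class guide ribose methylation and those of the box H/ACA class guide pseudouridylation. Many further factors fold and cut the precursor into the RNAs of the small and the large subunit, and the whole programme is known to follow cell growth and the transcription factor MYC.

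The 46 genes were grouped by role into the core proteins of box C/D snoRNPs (3 genes), those of box H/ACA snoRNPs (4), RNA polymerase I subunits (4), factors for the small subunit (14), factors for the large subunit (16) and abundant nucleolar proteins with more than 1 role (5). Levels are CPM, counts scaled to each library's effective size by TMM factors. A fold change is the knockout minus WT difference on the log2 scale, with its standard error (SE), from edgeR's quasi-likelihood test, and a gene is called at a Benjamini-Hochberg adjusted p under 0.05 over all 13265 genes and loci tested.

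Across the 46 genes, 38 were lower in the knockout libraries, 1 (Nop10) was higher and 7 did not pass the test. Of all rows tested, 41.6% were called, 20.6% lower and 20.9% higher in the knockout. The share of the 46 genes called lower, 82.6%, was above that background. Among the 7602 annotated rows with a WT mean at or above that of the lowest of these genes (19.0 CPM), 30.5% were called lower and 11.5% higher. The median log2 fold change was -0.89 over the 46 genes, -0.20 over those 7602 rows and 0.02 over all rows tested. For 33 of the 46 genes all 4 knockout values lay below all 4 WT values, against 19.6% of all rows. The called decreases ran between 1.38-fold for Polr1b and 3.98-fold for Dkc1, and 19 of them were at least 2-fold. The SE had a median of 0.21 on the log2 scale over the 46 genes. Summed over the 46 genes, the level was 8412, 5753, 5443 and 5531 CPM in knockout replicates 1 to 4, against 15476, 9729, 10187 and 15051 CPM in WT replicates 1 to 4. The knockout sums lay below all WT sums, with knockout replicate 1 nearest to them. In bulk RNA, fewer cells that express a gene and less of its RNA per cell cannot be told apart.

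**Figure D1:**
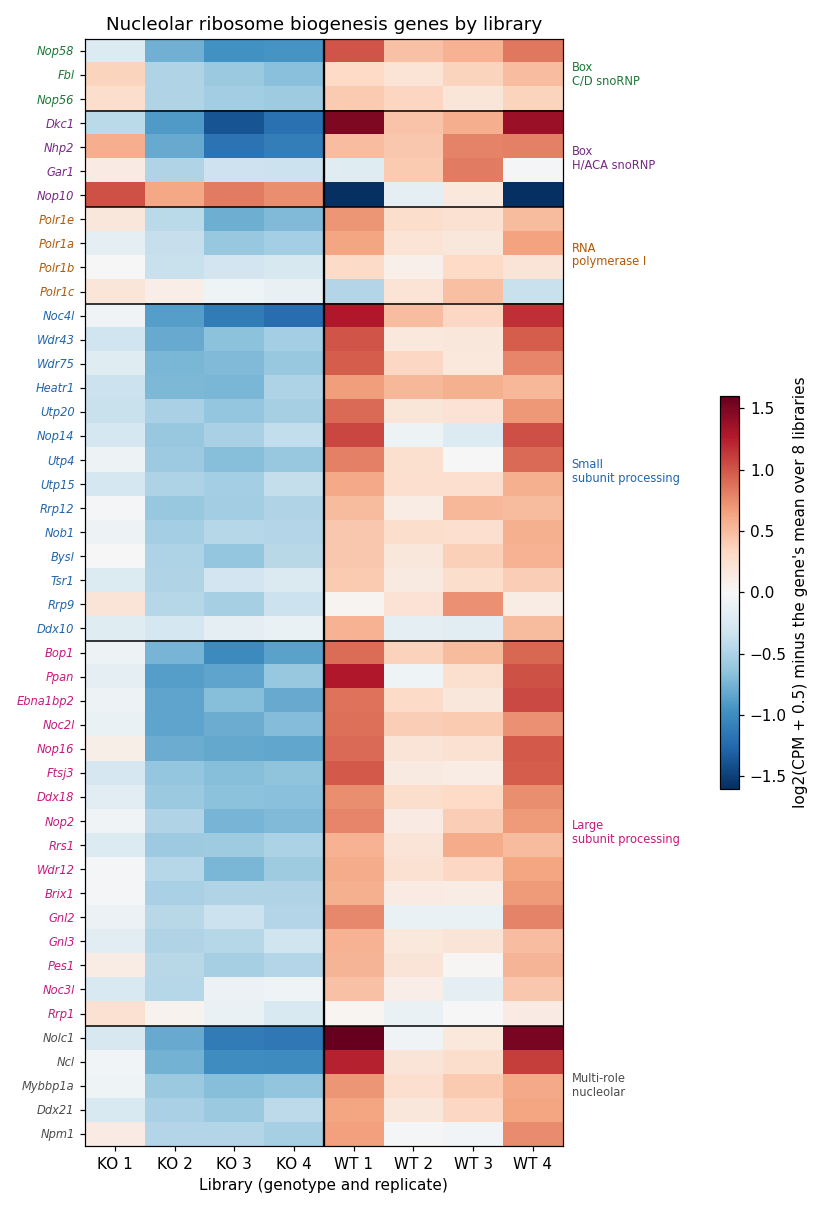
Heat map of the 46 genes (rows, grouped by role and ordered by fold change) in the 4 knockout libraries (left) and 4 WT libraries (right). Colour shows log2(CPM + 0.5) minus the gene's mean over the 8 libraries, with the scale ending at 1.6 in either direction. Most rows are blue on the left and red on the right. Nop10 is the reverse, knockout replicate 1 is paler than the other knockout libraries, and WT replicates 1 and 4 are darker than 2 and 3.

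The libraries were not uniform within either genotype, and this bears on every value below. Total counts per library ran between 29679405 and 32774905. Rows with a count above 0 numbered 14345 in knockout replicate 1 and 17759, 17948 and 17775 in knockout replicates 2 to 4. In WT replicates 1 to 4 they numbered 14794, 15430, 15385 and 14566. TMM factors were 0.966, 1.07, 1.14 and 1.08 in knockout replicates 1 to 4. They were 0.903, 0.987, 0.977 and 0.895 in WT replicates 1 to 4. By a chi-square per degree of freedom over rows with at least 20 counts, the smallest WT distances were those of replicates 1 with 4 (34.7) and 2 with 3 (35.0), while the other 4 WT pairs had 201.5 to 241.5. WT replicates 1 and 4 were both above 2 and 3 for 36 of the 46 genes, or 78.3%, against 32.8% of all rows tested. They were both below for 4 (Nop10, Gar1, Polr1c and Rrp9), or 8.7%, against 35.4% of all rows tested. Within the knockout, replicate 1 had the top value for 44 of the 46 genes, or 95.7%, against 40.8% of all rows. With WT replicates 1 and 4 summed into 1 sample and 2 and 3 into another, 31 of the 46 genes were called lower. None of the 46 was called higher there, and 10.3% of all rows were called lower. Leaving out 1 library at a time gave 30 to 41 of the 46 lower, against 13.2% to 24.6% of all rows. Over all rows the median change was 0.02 (log2) with TMM factors and 0.20 with upper-quartile factors or with library size alone. Upper-quartile factors left 33 of the 46 genes called lower, against 14.8% of all rows. Library size alone left 34, against 15.1% of all rows.

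The targeted genes were checked as Tead1 at 67.5 ± 12.4 CPM in the knockout libraries and 206 ± 80.8 CPM in WT (SD, n = 4 each; edgeR adjusted p = 0.00217), and Tead4 at 29.3 ± 6.08 CPM against 47.8 ± 12.2 CPM (edgeR adjusted p = 0.0261). Over the 70 possible assignments of the libraries to genotypes, an exact permutation test of log2 CPM (two-sided) gave p = 0.0286 for Tead1, the smallest it can give, and 0.0571 for Tead4. The knockout and WT values of Tead4 overlapped, and its call was lost in 9 of 21 alternatives. The 9 epithelial and colon markers summed to 105 to 143 CPM in knockout libraries and 56.7 to 106 CPM in WT libraries. Among them Epcam had no count in any library, while Krt18 was at 76.3 ± 8.65 CPM in the knockout and 38.5 ± 2.93 CPM in WT (edgeR adjusted p = 0.00107). Nearly all the rest was Krt20, at 47.4 ± 9.12 CPM in the knockout and 34.6 ± 19.2 CPM in WT (edgeR adjusted p = 0.289). Krt8 had means of 0.896 CPM in the knockout and 0.328 CPM in WT. Cdh1, Krt19, Cldn3, Cdx2 and Vil1 had means of 0 to 0.127 CPM in either genotype and were not tested. The 5 fibroblast markers summed to 1565 to 2072 CPM in knockout libraries and 1364 to 2023 CPM in WT libraries, most of it Col1a2 (1519 ± 160.0 CPM in the knockout and 1418 ± 296 CPM in WT, adjusted p = 0.716). Of the 4 fibroblast markers tested, 2 were called higher. Pdgfra was at 35.9 ± 8.43 CPM in the knockout and 8.01 ± 2.72 CPM in WT (edgeR adjusted p = 0.00084), and Dcn was at 2.37 to 14.4 CPM in the knockout and 0 to 0.142 CPM in WT (edgeR adjusted p = 0.0008). The leukocyte list summed to 1.07 to 4.17 CPM in knockout libraries and 0 to 0.478 CPM in WT libraries, and in the knockout nearly all of it was Lyz2. Cd3e, Adgre1 and Kdr had no count in any library. The part of these markers in the nucleolar values was not tested.

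Several of the 46 genes carry guide RNAs of the same machinery, nearly all in their introns. In GENCODE release M21 on GRCm38, 8 of the 46 genes (17.4%) hold at least 1 snoRNA gene on their own strand, against 1.76% of 11746 tested protein-coding genes. These hosts are Nop56, Nop58, Dkc1, Ncl, Gnl3, Ppan, Tsr1 and Wdr43, and together they hold 23 snoRNA genes, 22 of them intronic. All 8 host mRNAs were called lower in the knockout (median log2 fold change -1.26), as were 30 of the 38 genes that hold none (median -0.88). Of these hosted snoRNA genes, 0 had a row among the counts, so the levels of the snoRNAs themselves are not given by these data. The sequences printed next, from GENCODE transcripts in DNA letters, are snoRNAs with both boxes of the C/D class, shown because their hosts encode the proteins that bind or process this class or the precursor it modifies. Capitals mark the box C letters TGATGA nearest the 5′ end and the box D letters CTGA nearest the 3′ end.
Snord11 in Nop58, chr1:59704790-59704873, plus strand: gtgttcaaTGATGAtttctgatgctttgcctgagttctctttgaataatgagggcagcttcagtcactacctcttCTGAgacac
Gm26287 in Nop58, chr1:59704258-59704338, plus strand: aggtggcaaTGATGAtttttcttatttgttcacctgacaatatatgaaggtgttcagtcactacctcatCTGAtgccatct
Snord110 in Nop56, chr2:130275506-130275573, plus strand: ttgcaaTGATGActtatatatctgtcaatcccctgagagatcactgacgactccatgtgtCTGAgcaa
Snord82 in Ncl, chr1:86356261-86356330, minus strand: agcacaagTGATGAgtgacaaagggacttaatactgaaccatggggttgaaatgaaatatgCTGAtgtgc
Snord69 in Gnl3, chr14:31014287-31014366, minus strand: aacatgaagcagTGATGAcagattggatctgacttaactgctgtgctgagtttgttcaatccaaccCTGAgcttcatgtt
Snord92 in Wdr43, chr17:71631281-71631365, plus strand: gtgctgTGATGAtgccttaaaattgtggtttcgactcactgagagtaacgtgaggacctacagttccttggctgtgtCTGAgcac
Gm23008 in Ppan, chr9:20890757-20890836, plus strand: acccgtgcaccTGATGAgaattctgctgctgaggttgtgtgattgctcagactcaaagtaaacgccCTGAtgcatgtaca
Of the 23 hosted snoRNAs, 11 hold the first set wholly within 20 bases of the 5′ end and the second wholly within 20 bases of the 3′ end, and the hosts of those printed fell 1.53-fold (Nop56) to 2.69-fold (Nop58).

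The box C/D core proteins were all called lower, and Nop58 by far the most. Nop58, which pairs with Nop56 on each C/D particle, stood at 195, 133, 116 and 118 CPM in knockout replicates 1 to 4, against 458, 315, 336 and 410.3 CPM in WT replicates 1 to 4. No knockout value reached a WT value, and its log2 fold change stood at -1.43 (SE 0.21, edgeR adjusted p = 0.00133). Nop56 had 420.2, 246, 234 and 233 CPM in the knockout and 461, 436, 395 and 442 CPM in WT. Knockout replicate 1 lay inside the WT range for it, and the other 3 knockout libraries lay well below (log2 fold change -0.61, SE 0.21, edgeR adjusted p = 0.0399). Fbl, the fibrillarin methyltransferase itself, had 234, 131, 120.5 and 115 CPM in the knockout and 228, 212, 235 and 257 CPM in WT, again with knockout replicate 1 inside the WT range (log2 fold change -0.63, SE 0.23, edgeR adjusted p = 0.0493). The calls for Nop56 and Fbl were lost when most single libraries were left out (adjusted p up to 0.113 and 0.132), although both stayed negative. Per kilobase of transcript, Nop58 was at 0.551 ± 0.0348 of the level of Nop56 in the knockout libraries and 0.957 ± 0.128 in WT (SD, n = 4 each). The ranges of this ratio of levels, 0.51 to 0.594 in the knockout and 0.792 to 1.09 in WT, did not overlap. The ratio was computed after the values had been seen and was not tested.

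The box H/ACA core held the largest decrease and the only called increase among the 46 genes. Dkc1, which encodes dyskerin, the pseudouridine synthase that also stabilises telomerase RNA, had 92.7, 66.9, 48.0 and 54.5 CPM in the knockout, against 355, 173, 187 and 328 CPM in WT. Every knockout value lay below every WT value, and Dkc1 changed by -1.99 on the log2 scale (SE 0.30, edgeR adjusted p = 0.00142), a call which held under each of 21 alternative settings. Nhp2 had 155, 58.7, 45 and 47.4 CPM in the knockout and 145, 138, 179 and 180.1 CPM in WT, with knockout replicate 1 inside the WT range (log2 fold change -1.07, SE 0.37, edgeR adjusted p = 0.0431; adjusted p up to 0.114 with 1 library left out). Gar1 did not pass the test. It had 61.9, 40.2, 44.6 and 44.4 CPM in the knockout and 49.0, 75.5, 101 and 55.1 CPM in WT (log2 fold change -0.55, SE 0.24, edgeR adjusted p = 0.09).

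Nop10, the smallest protein of the H/ACA core, went the other way. It had 58.5, 44.3, 51 and 48.4 CPM in the knockout and 9.02, 25.8, 32.3 and 8.87 CPM in WT. All knockout values were above all WT values, the WT libraries were split, and the log2 fold change came to 1.41 (SE 0.40, edgeR adjusted p = 0.0196). Leaving out any 1 library kept the call (log2 fold change 1.15 to 1.77, adjusted p up to 0.0441). It was lost with the WT libraries summed in pairs (1.38, adjusted p = 0.0545). Nop10 has a short annotated transcript of 1109 bases. Of 1132 tested annotated genes with a transcript under 1200 bases, 29.3% were called higher and 10.2% lower in the knockout, against 16.2% and 25.8% of the 3690 genes at 4000 bases or more. With each library's trend with transcript length and GC content removed, the log2 fold change of Nop10 was 1.09 (edgeR adjusted p = 0.0372). Fbl and Nhp2, the other 2 of these 46 genes with a transcript under 1200 bases, were lower in the knockout, as given above. Their calls were lost in 15 and 11 of 21 alternatives. Of the 11 of these 46 genes at 1200 to 2000 bases, 6 were called lower and 0 higher. Of all 2098 tested annotated genes in that range, 17.3% were called lower and 23.0% higher. The part of transcript length in the change of Nop10 was not tested further.

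Per kilobase of transcript, the order of the H/ACA core levels differed between the genotypes. In the knockout libraries it was Nhp2 (73.4 ± 50.4), Nop10 (45.6 ± 5.37), Gar1 (37.6 ± 7.59) and Dkc1 (23.4 ± 7.04 CPM per kilobase), and in WT it was Nhp2 (154 ± 21.2), Dkc1 (92.9 ± 33.5), Gar1 (55.1 ± 18.3) and Nop10 (17.1 ± 10.7; SD, n = 4 each). Taken as the mean ± SD, the spreads of Nhp2, Nop10 and Gar1 overlapped in the knockout, and that of Dkc1 overlapped those of Nhp2 and Gar1 but not that of Nop10. In WT those of Dkc1 and Gar1 overlapped. The ratio of Nop10 to Dkc1 levels was 1.6 to 2.69 in the knockout libraries and 0.0643 to 0.436 in WT libraries. It was chosen after the values had been seen and was not tested.

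**Figure D2:**
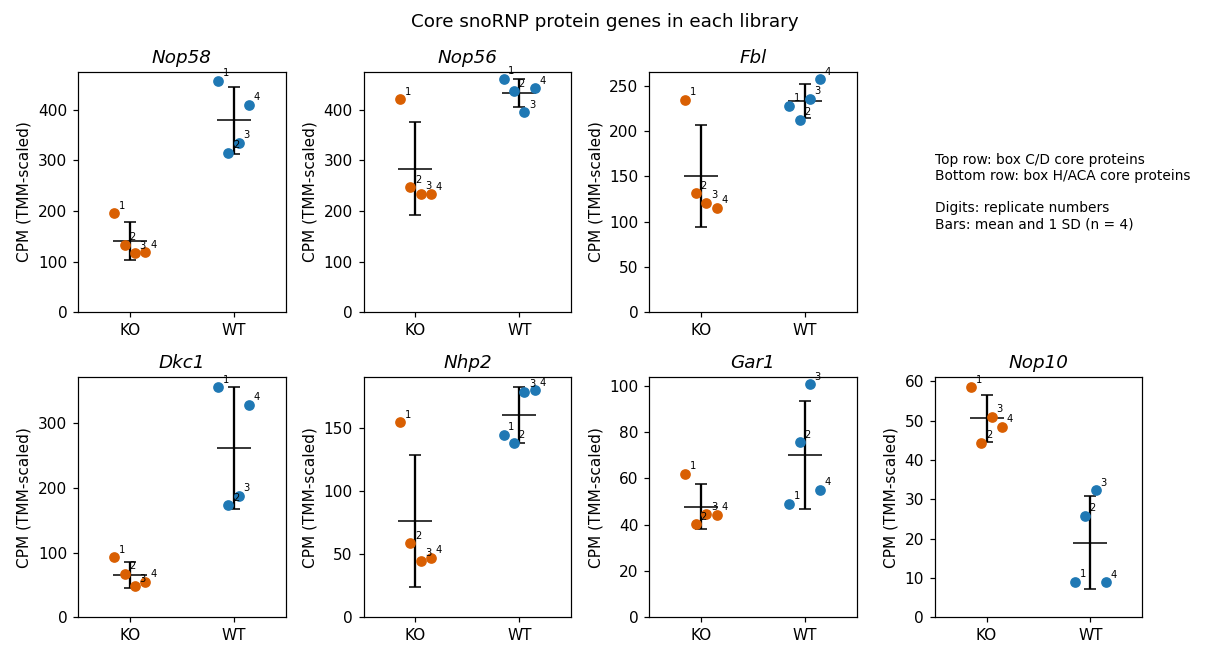
TMM-scaled CPM (y axis, starting at 0) of the 3 box C/D core genes (top) and 4 box H/ACA core genes (bottom) in knockout and WT libraries. Points are libraries with their replicate number, and bars are the mean and 1 SD (n = 4). Nop58, Dkc1 and Nop10 separate the genotypes, while knockout replicate 1 lies within the WT range for Nop56, Fbl and Nhp2.

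For these opposite movers, and for the single promoter of the set with a MYC-type site, the 250 bases before the RefSeq start (GRCm38.p6) are printed next, 5′ to 3′ on the gene's strand, with any match in capitals.
Nop10, chr2:112261676-112261925, plus strand: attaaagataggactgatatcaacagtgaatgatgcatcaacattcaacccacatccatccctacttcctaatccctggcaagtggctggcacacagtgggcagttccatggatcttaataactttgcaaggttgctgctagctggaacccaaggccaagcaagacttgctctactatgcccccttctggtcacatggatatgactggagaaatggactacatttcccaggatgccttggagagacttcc
Dkc1, chrX:75095604-75095853, plus strand: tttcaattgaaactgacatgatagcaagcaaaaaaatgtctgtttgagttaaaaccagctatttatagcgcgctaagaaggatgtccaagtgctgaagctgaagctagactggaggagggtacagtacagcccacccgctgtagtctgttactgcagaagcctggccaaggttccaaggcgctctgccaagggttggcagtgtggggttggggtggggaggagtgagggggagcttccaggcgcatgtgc
Nop2, chr6:125131633-125131882, plus strand: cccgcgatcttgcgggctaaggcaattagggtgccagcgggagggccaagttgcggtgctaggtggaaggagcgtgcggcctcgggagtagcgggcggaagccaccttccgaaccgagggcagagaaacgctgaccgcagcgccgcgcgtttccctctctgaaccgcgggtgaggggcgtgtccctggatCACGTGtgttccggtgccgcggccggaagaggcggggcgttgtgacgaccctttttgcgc
Promoters were found for 40 of the 46 genes. A gene with several annotated starts had several windows and counted as a match if any of them matched. The 40 genes had 43 windows, and the 9214 tested genes with a promoter had 11745. The E-box CACGTG, the letters bound by MYC with MAX, occurred in the window of 1 of the 40, Nop2 (starting 60 bases before the start), or 2.5%, against 9.8% of 9214 tested genes with a promoter. CATTCC, the core letters bound by TEAD factors, was sought on both strands and matched in 0 of the 40 genes, against 12.4% of those tested genes. Over all 27025 genes with a promoter in the table, the shares were 6.9% for CACGTG and 14.4% for CATTCC. The E-box reads the same on both strands, and the 2 motifs do not contain each other. These are letter counts in a short window, and sites elsewhere were not searched.

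Of the RNA polymerase I subunits, 3 of 4 were called lower. Polr1a, the largest and catalytic subunit, had 190.3, 164, 138 and 145 CPM in the knockout and 328, 246, 240.2 and 332 CPM in WT (log2 fold change -0.85, SE 0.17, edgeR adjusted p = 0.00498). Polr1b, the second-largest subunit, had 63.7, 50, 51.9 and 53.4 CPM against 79.3, 68.0, 80.0 and 74.1 CPM (-0.46, SE 0.13, adjusted p = 0.0212). Polr1e, a subunit specific to this polymerase, had 22.4, 14.5, 11.3 and 11.9 CPM against 32.5, 24, 23.6 and 28.3 CPM (-0.85, SE 0.24, adjusted p = 0.0175). For all of these, the knockout values lay wholly below the WT values. The call for Polr1b was lost in 11 of 21 alternatives, among them upper-quartile scaling (adjusted p = 0.0865), the unscaled library size (0.0868) and the replicate block (0.0528). That for Polr1e was lost in 6 of 21, among them the omission of knockout replicate 2 or 4 or of WT replicate 1 (adjusted p up to 0.0524). Polr1c, a subunit shared with RNA polymerase III, had 64.0, 60.4, 53.4 and 51.5 CPM in the knockout and 40.3, 64.9, 78.2 and 43.7 CPM in WT. Its WT libraries bracketed all knockout values, and its log2 fold change of 0.01 (SE 0.22, adjusted p = 0.966) changed sign with several settings.

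All 14 small subunit factors had a negative log2 fold change, and 12 of them were called lower, with a median of -0.94. Noc4l, whose yeast counterpart partners that of Nop14 in small subunit assembly, fell the most, with 51.7, 28.8, 24.3 and 22.6 CPM in the knockout and 131, 75.4, 67.7 and 121 CPM in WT (log2 fold change -1.63, SE 0.32, edgeR adjusted p = 0.00402). Nop14 itself had 104 to 129 CPM in the knockout and 135 to 331 CPM in WT, narrowly apart (-1.02, adjusted p = 0.0221). Its call was lost in 6 of 21 alternatives, among them the omission of knockout replicate 2 or 3 or of WT replicate 1 or 4 (adjusted p up to 0.0645). The early-binding subcomplex that joins transcription of the precursor to its processing includes Heatr1, Utp4, Utp15, Wdr43 and Wdr75. All 5 were called lower, with log2 fold changes of -1.14, -1.01, -0.87, -1.20 and -1.15 in that order. Heatr1 had 62.0 to 81.4 CPM in the knockout and 149 to 164 CPM in WT (SE 0.14, adjusted p = 0.00062). Its coefficient of variation in WT, 4.58%, was the lowest of the 5, and in the knockout the lowest was that of Utp15, 8.25%. Utp20, a very large scaffold protein, fell to 133 ± 10.3 CPM in the knockout against 275 ± 67.5 CPM in WT (adjusted p = 0.00277).

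Factors of later steps in the small subunit were called lower as well. Rrp12, an export and assembly factor, had a log2 fold change of -0.83 (adjusted p = 0.0057). Nob1, the nuclease that makes the final cut of the small subunit RNA, was at 60.2 ± 9.23 CPM in the knockout and 103 ± 10.3 CPM in WT (-0.77, adjusted p = 0.004). Bysl and Tsr1, which act in late precursors, had -0.77 (adjusted p = 0.00668) and -0.62 (adjusted p = 0.0052). The knockout values lay wholly below the WT values for each of these 4 genes. No difference between early and late factors was tested. Rrp9, a protein of the snoRNP that guides early cuts, had 32.6 to 54.9 CPM in the knockout and 49.1 to 79.2 CPM in WT (-0.57, adjusted p = 0.0583). The helicase gene Ddx10 had 46.5 to 52.9 CPM in the knockout and 50.1 to 84.1 CPM in WT (-0.41, adjusted p = 0.119), and neither gene passed.

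Of the 16 large subunit factors, 14 were called lower, with a median log2 fold change of -0.96, and the other 2 were Noc3l and Rrp1. Bop1 had 136, 85.8, 70.6 and 79.2 CPM in the knockout and 268, 186, 204 and 273 CPM in WT (-1.33, SE 0.23, edgeR adjusted p = 0.0026). Bop1 forms a complex with Pes1 and Wdr12, and the complex members were unequal. Wdr12 fell to 54.3 ± 12 CPM in the knockout against 101 ± 13.3 CPM in WT (-0.89, adjusted p = 0.00492). Pes1 had 103 to 162 CPM in the knockout and 151 to 217 CPM in WT, with knockout replicate 1 above 1 WT library (-0.65, adjusted p = 0.0235; up to 0.0701 with 1 library left out). The differences among the 3 were not tested.

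Ppan, whose product acts early in large subunit assembly, had 91.7, 54.7, 56.2 and 66.7 CPM in the knockout and 248, 96.7, 122 and 206 CPM in WT (-1.32, SE 0.31, edgeR adjusted p = 0.00834). The knockout values were all lower, although the gap to WT replicate 2 was small. The other factors called lower by at least 2-fold were Ebna1bp2 (-1.22), Noc2l (-1.20), Nop16 (-1.17), Ftsj3 (-1.16) and Ddx18 (-1.05), with adjusted p between 0.00232 and 0.00886. Noc2l and Noc3l encode partners, and Noc3l did not pass, with 39.6 to 51.9 CPM in the knockout and 49.0 to 75.6 CPM in WT (-0.45, adjusted p = 0.0614). Nop2, a cytosine methyltransferase of the large subunit RNA, fell to 147 ± 34.4 CPM against 291 ± 57.0 CPM in WT (-0.99, adjusted p = 0.00539).

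Rrs1, which helps to bring in the ribosomal 5S particle, had the smallest adjusted p among the large subunit factors, with 62.8 to 80.9 CPM in the knockout and 109 to 142 CPM in WT (-0.94, SE 0.15, adjusted p = 0.0017). Brix1 (-0.77, adjusted p = 0.00968) and the GTPase genes Gnl2 (-0.74, adjusted p = 0.0324) and Gnl3, which encodes nucleostemin (-0.72, adjusted p = 0.00486), were also called lower. For Gnl2 knockout replicate 1 (69.9 CPM) was above WT replicates 2 and 3 (69.4 and 69.3 CPM), and the call was lost in 10 of 21 alternatives, among them the omission of knockout replicate 2, 3 or 4 or of WT replicate 1 or 4 (adjusted p up to 0.09). Rrp1 was the one factor of this kind close to equal, at 149 ± 21.6 CPM in the knockout and 151 ± 10.4 CPM in WT (SD, n = 4 each; log2 fold change -0.01, SE 0.14, edgeR adjusted p = 0.944). Its sign turned under 8 of 21 alternatives, with upper-quartile scaling at 0.16, and it was called in none.

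**Figure D3:**
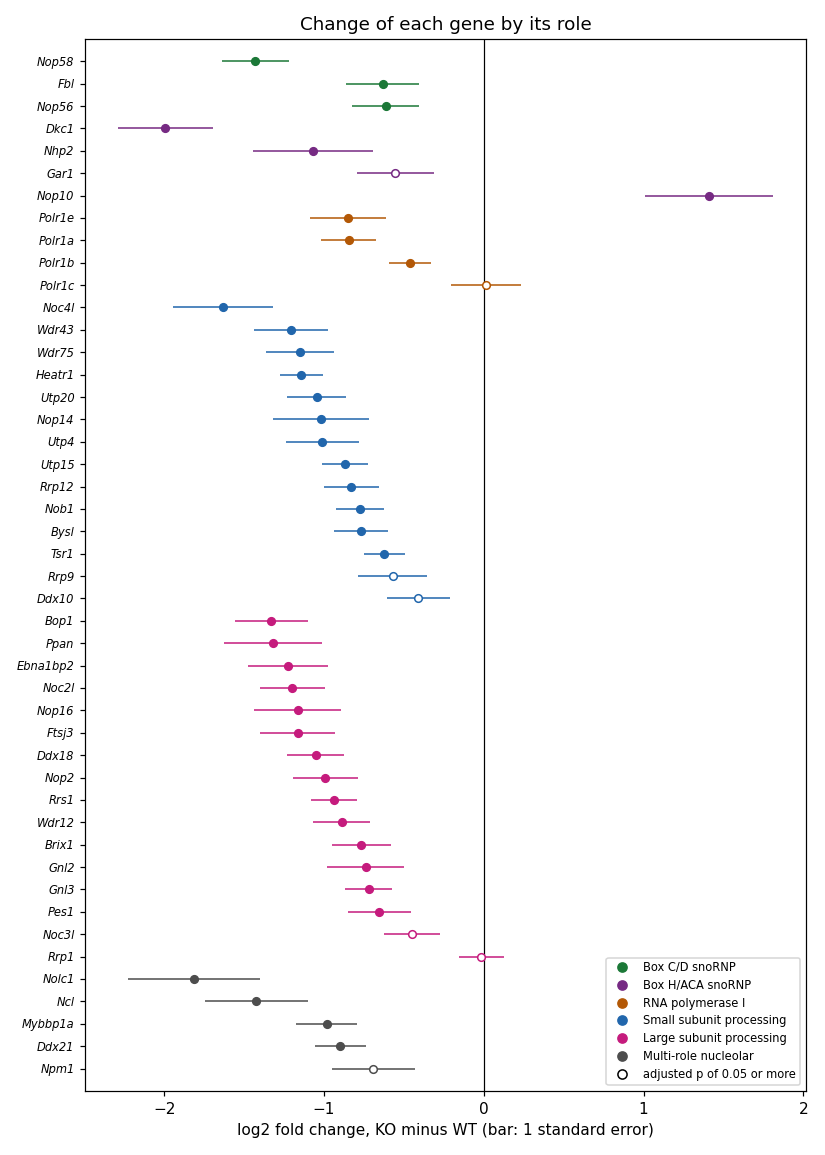
Log2 fold change (x axis, knockout minus WT) of the 46 genes by role, with bars of 1 SE. Filled points are genes with an adjusted p under 0.05 and open points the 7 that did not pass. All filled points but Nop10 lie left of 0, and Dkc1 and Nolc1 lie farthest left.

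Of the 5 abundant nucleolar proteins 4 were called lower. Ncl encodes nucleolin, a histone chaperone and precursor-binding protein, and had 1282, 782, 666 and 658 CPM in the knockout, against 3106, 1527, 1607 and 2851 CPM in WT. All knockout values lay below all WT values, and WT replicates 1 and 4 were far above 2 and 3 (log2 fold change -1.42, SE 0.32, edgeR adjusted p = 0.00761). Nolc1, a phosphoprotein that chaperones snoRNPs, showed the same arrangement, with 283, 192, 155 and 152 CPM in the knockout and 1079, 324, 379 and 967 CPM in WT (-1.81, SE 0.41, adjusted p = 0.00772). Mybbp1a, a nucleolar regulator of transcription by RNA polymerase I, fell to 359 ± 77.3 CPM in the knockout against 709 ± 93.8 CPM in WT (-0.98, adjusted p = 0.00392). Ddx21, a helicase of transcription and snoRNA release, fell to 212 ± 23.1 CPM against 395 ± 59.2 CPM (-0.90, adjusted p = 0.00277). Npm1, the chaperone nucleophosmin, did not pass. It had 1505, 997, 999 and 951 CPM in the knockout and 2169.8, 1348, 1333 and 2332 CPM in WT (-0.69, SE 0.26, adjusted p = 0.0558), and knockout replicate 1 was above WT replicates 2 and 3. It passed without knockout replicate 1 (adjusted p = 0.0168) or WT replicate 2 (0.043) or 3 (0.0315), by DESeq2 (0.0174) and by limma-voom (0.0481).

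Other genes of the same pathway, in lists that hold none of the 46, moved the same way in most cases. Of 124 further factors 123 were tested, 75 (61%) were lower and 4 higher, and the median log2 fold change was -0.60. Among other small subunit factors 22 of 34 were lower and none higher. With upper-quartile factors 17 were lower and 2 higher, and 11 were lower in the test against a change of 0.5 (log2). The smallest p-values there belonged to Wdr3 (-1.08, edgeR adjusted p = 0.0012) and Ddx49 (-0.97, adjusted p = 0.00133). Among other large subunit factors 23 of 32 were lower and none higher, with the smallest p-values in Nol9 (-1.08, adjusted p = 0.00144) and Urb2 (-0.88, adjusted p = 0.00212). With upper-quartile factors 19 were lower and 1 higher. Lower calls numbered 14 with the WT libraries summed in pairs and 8 in the test against a change of 0.5 (log2). Of 12 genes listed for snoRNP assembly, 8 were lower, and 4 were lower in the test against a change of 0.5 (log2). The smallest p-values there belonged to Ruvbl2, an ATPase of the assembly chaperone (-1.38, adjusted p = 0.00324), and Snu13, which binds box C/D RNAs directly (-1.01, adjusted p = 0.00413).

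Of 14 tested genes of the RNA exosome and precursor decay, 7 were lower, with the nuclease gene Dis3 at 36.1 ± 9.79 CPM in the knockout and 147 ± 63.0 CPM in WT (-2.03, adjusted p = 0.00176) and the exosome helicase gene Mtrex at -0.89 (adjusted p = 0.00246). The exosome list had 4 lower calls with the WT libraries summed in pairs and 2 in the test against a change of 0.5 (log2). Among 15 genes of subunit export and late maturation, 8 were lower and 1 higher. They included Abce1, a ribosome-recycling ATPase (-1.76, adjusted p = 0.00198), and the kinase gene Riok1 (-0.86, adjusted p = 0.00692). Zfp622, which loads onto the exported large subunit, was the one that rose (0.54, adjusted p = 0.0147), and it is named after its value was seen.

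The remaining polymerase I genes were the least uniform list, with 7 of 16 lower and 3 higher. These counts also moved with the setting. Lower calls numbered 3 under upper-quartile scaling or library size alone and 1 in the test against 0.5. With the length and GC trend removed, 10 were lower and 2 higher. Polr2k and Polr2l, small subunits shared by all 3 nuclear RNA polymerases, were higher. Polr2k had 12.9 to 16.8 CPM in the knockout and 4.38 to 6.64 CPM in WT (1.45, SE 0.20, edgeR adjusted p = 0.00105), and Polr2l had 51 to 89.4 CPM against 20.9 to 34.9 CPM (1.25, SE 0.24, adjusted p = 0.0036). Polr1d, a small subunit shared with RNA polymerase III and named after its value was seen, had 105 to 150.0 CPM in the knockout and 68.3 to 106 CPM in WT (0.56, adjusted p = 0.0278).

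**Figure D4:**
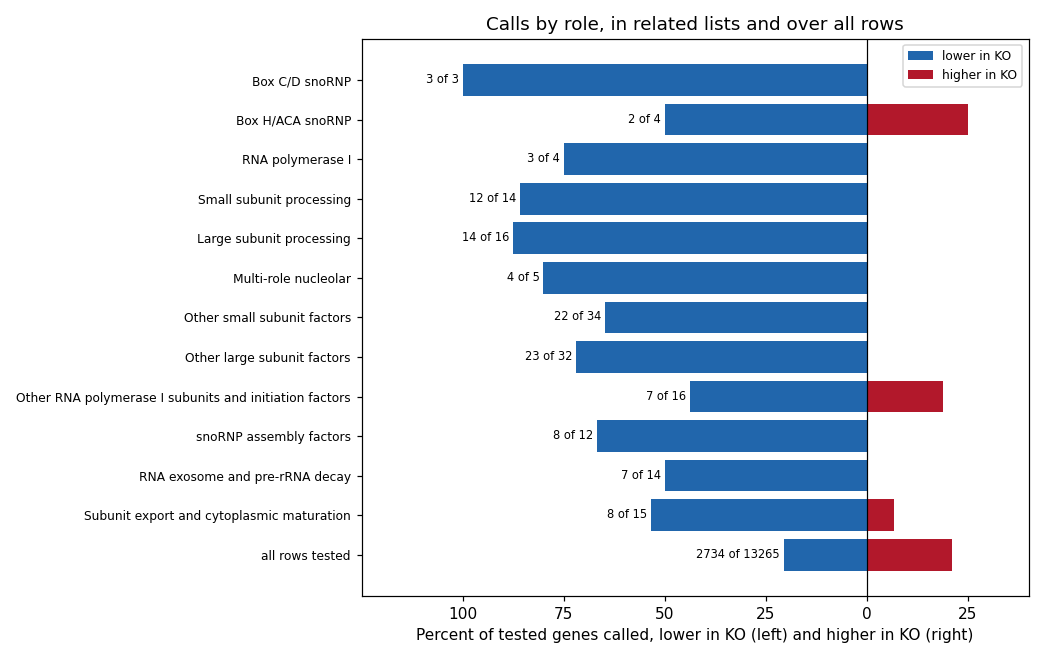
Percent of tested genes called lower (left) and higher (right) in the knockout at an adjusted p under 0.05, for the 6 roles of the 46 genes, 6 lists of other genes of the pathway and all rows tested. The number called lower of the number tested stands beside each bar. Each role and list lies above the 20.6% of all rows.

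Genes of cell division were lower in the knockout as well. The summed level of 10 genes of the G2 and M phases was 2183, 996, 593 and 491 CPM in knockout replicates 1 to 4, against 4757, 3308, 3089.9 and 3989.6 CPM in WT replicates 1 to 4. Of these 10 genes, 9 were called lower. Each of the 10 had its top knockout value in replicate 1. The WT sums were highest in replicates 1 and 4, but not every gene had that order. Mki67 had 1434, 695, 555 and 1080.3 CPM in WT replicates 1 to 4, Cdk1 had 126, 177, 199.8 and 119 CPM, Aurkb had 117, 149, 166 and 115 CPM, and Top2a lay between 632 and 668 CPM. Their part in the nucleolar decrease was not tested. Myc had 73.4, 64.5, 128 and 139 CPM in the knockout and 263, 124, 139 and 298 CPM in WT (log2 fold change -1.03, SE 0.35, edgeR adjusted p = 0.0384). The genotypes overlapped for Myc, and its call did not survive the omission of knockout replicate 1, 2 or 3 (adjusted p = 0.0747, 0.105 and 0.0557) or of WT replicate 1 or 4 (0.0955 and 0.104). Among the knockout libraries, replicate 1 had the highest nucleolar level and one of the lowest Myc levels. Among the WT libraries, replicates 1 and 4 had both the higher nucleolar levels and the higher Myc levels. The part of Myc in the nucleolar decrease was not tested.

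**Figure D5:**
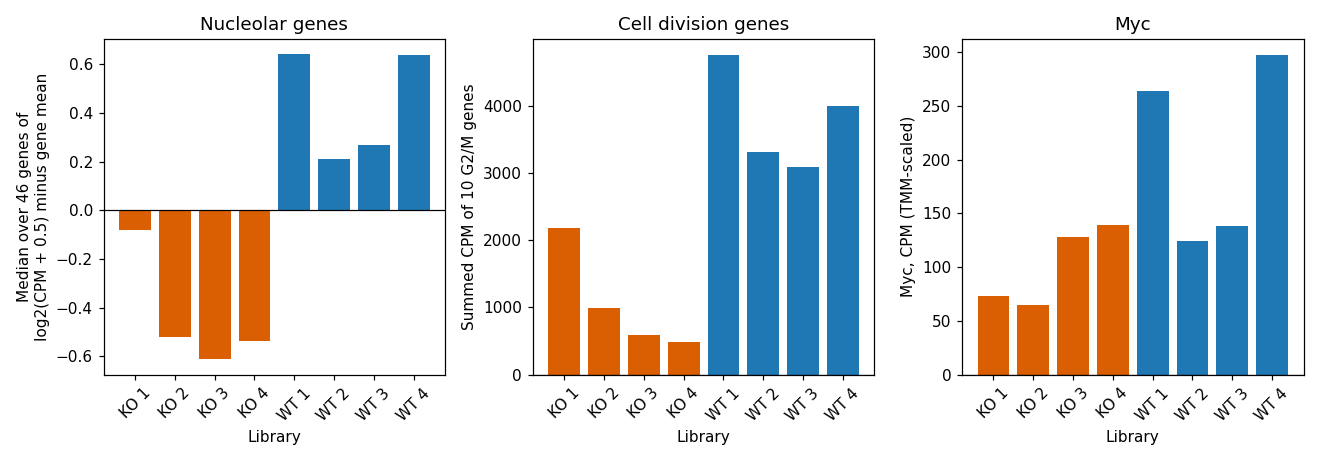
Per-library values in the 4 knockout (left, orange) and 4 WT (right, blue) libraries. The panels show the median over the 46 genes of log2(CPM + 0.5) minus each gene's mean over the 8 libraries, the summed CPM of 10 G2 and M phase genes, and Myc in CPM. The first 2 panels separate the genotypes, with knockout replicate 1 nearest to WT, and the Myc panel does not.

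Between the roles the medians lay close together, at -0.63 for box C/D, -0.81 for box H/ACA, -0.65 for RNA polymerase I, -0.94 for the small subunit, -0.96 for the large subunit and -0.98 for the abundant proteins. The roles were not tested against each other. Without knockout replicate 1 the box H/ACA median was -1.20. Within roles the spread was wider than between them, running between -1.99 and 1.41 in the box H/ACA core. Of the 46 genes, 12 overlap exons of a protein-coding gene on the opposite strand, among them Nop56, Nhp2, Dkc1 and Bop1. The use of strand in counting is not stated, so reads of such pairs may not be told apart.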

How the data were processed

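RNA was extracted from CT26 cells with TRIzol and made into mRNA libraries with a Yeasen kit, per the labels' protocols. The submitters' processing notes name HISAT2, StringTie and GRCm38. Which program counted the reads, and whether it used strand, is not stated. The tables deposited by the authors hold unnormalised whole-number counts for each gene. The 2 tables differ in 0 cells, so 1 was used. Groups came from the sample titles, 4 knockout and 4 WT.

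Low rows were removed with filterByExpr at a minimum count of 10 and a minimum total of 15. TMM factors set the scale, and the two-sided test was that of edgeR 4.0.16 (R 4.3.3; glmQLFit and glmQLFTest), knockout minus WT, with no covariates and Benjamini-Hochberg adjustment over 13265 rows. The common biological coefficient of variation was 0.294. The SE is the log2 fold change divided by the square root of F. The procedure was tested on simulated counts. Counts of the 46 genes lay between 245 and 84414 per library, so counting error is small beside the spread between libraries. Levels per kilobase used the length of the APPRIS principal transcript in GENCODE M21.

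The 46 genes, their roles, the related lists and the alternatives were chosen with earlier results of these data known. Every member may be named. Values in every library are given for the box C/D, box H/ACA and RNA polymerase I genes and the 8 largest changes (Npm1 was added). Each related list gives the names of its 2 genes of smallest p, and further names are marked as such. Alternatives were scaling by DESeq2 size factors, by upper quartiles or by library size alone; no filter or at least 5 CPM in 4 libraries; DESeq2 1.42.0 and limma-voom 3.58.1; a replicate block; 0.01 as the threshold on the adjusted p; glmTreat against a log2 change of 0.5; annotated genes only; WT libraries summed in pairs; and each library left out.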

Additional observations from a re-analysis of the deposited data

Results flagged for a closer look

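For each of the 46 genes, Myc, Tead1 and Tead4, the highest and the lowest library of each genotype was compared with the other 3 libraries. In 14 of 98 such groups of 4 libraries, 1 library stood apart by Dixon's 95% criterion, which chance alone flags in about 5% of groups. The groups are not independent, since they come from the same 8 libraries. In 13 of the 14 the library was knockout replicate 1, and it was the highest each time. Among genes of the snoRNP core these were Nop56 at 420.2 CPM (233 to 246 in the other knockout libraries), Fbl at 234 CPM (115 to 131 in the other knockout libraries) and Nhp2 at 155 CPM (45 to 58.7 in the other knockout libraries). Among small subunit factors they were Utp4 at 88.6 CPM (58.2 to 62.5 in the other knockout libraries) and Nob1 at 73.9 CPM (53.7 to 56.9 in the other knockout libraries). Among large subunit factors they were Nop16 at 83.4 CPM (43.5 to 45 in the other knockout libraries), Pes1 at 162 CPM (103 to 109 in the other knockout libraries), Noc2l at 178 CPM (107 to 118 in the other knockout libraries), Ftsj3 at 108 CPM (81 to 84.2 in the other knockout libraries), Ddx18 at 128 CPM (90.7 to 95.6 in the other knockout libraries) and Brix1 at 97.7 CPM (69.5 to 71.3 in the other knockout libraries). Among the abundant proteins they were Npm1 at 1505 CPM (951 to 999 in the other knockout libraries) and Mybbp1a at 474 CPM (310.4 to 329 in the other knockout libraries). The last was Rrp12, for which WT replicate 2 was the lowest WT library at 72 CPM (94 to 96.4 in the other WT libraries). The WT libraries of Nop56, Fbl and Nhp2 ran between 395 and 461, 212 and 257, and 138 and 180.1 CPM in that order, so that knockout replicate 1 alone lay among them.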

How the results depend on the processing

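Over 21 alternatives, 850 of 966 pairs of a gene and an alternative kept both direction and call, 88 lost the call, 14 gained it and 14 changed sign. The sign changes fell on 2 genes that did not pass, Polr1c and Rrp1, named next. Of the 38 genes called lower, 23 kept the call in each alternative. The number called lower was 23 when tested against a change of 0.5 (log2), against 7.94% of all rows. It was 30 to 41 with 1 library left out, against 13.2% to 24.6% of all rows. That number was lowest without knockout replicate 2 or WT replicate 1 and highest without knockout replicate 1. The single higher call, Nop10, was 0 at an adjusted p under 0.01 (adjusted p = 0.0196), in the test against 0.5 (adjusted p = 0.0587) and with the WT libraries summed in pairs (0.0545). It was 1 in each leave-one-out fit. Rows called over the table numbered 5513, against 2736 at an adjusted p under 0.01, 2603 in the test against 0.5, 3134 with the WT libraries summed in pairs and 3809 to 6829 with 1 library left out. Higher calls made up 50.4% of all calls under TMM, 64.6% under upper-quartile scaling, 63.5% under library size alone and 38.3% with the length and GC trend removed, an alternative chosen after seeing the data. With that trend removed the box C/D median was -1.04 and the box H/ACA median -1.19. The box H/ACA median was -1.20 to -0.69 with 1 library left out, lowest without knockout replicate 1. The causes of these differences were not tested.

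Polr1c was at -0.06, -0.0052, -0.13 and -0.12 without knockout replicate 1 or 2 or WT replicate 1 or 4, -0.0204 with the WT libraries summed and -0.20 with the length and GC trend removed. Its highest leave-one-out value was 0.19, without WT replicate 3. Rrp1 was at 0.16 under upper-quartile scaling and 0.16 under library size alone. It was at 0.0046 without the filter, 0.0621 with at least 5 CPM, 0.03, 0.0672 and 0.0003 without knockout replicate 3 or 4 or WT replicate 4, and 0.0135 with annotated genes only. With the replicate number as a block, 37 of the 46 genes were called lower, against 17.3% of all rows, and 1 higher. Polr1b alone lost its call. Libraries of the 2 genotypes with the same number had correlations of -0.03 to -0.0028 between their deviations across genes. Pairs with different numbers had -0.0978 to 0.0993. Whether libraries with the same number share a preparation is not stated. These correlations cannot settle it, because the larger differences within each genotype enter the same deviations. Depth limited none of the 46 genes, whose lowest count was 245.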

Other observations

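Across the 46 genes, those at a higher WT level tended to have a lower log2 fold change (Spearman's rho -0.539 over 46 genes, a description across genes that share the 8 libraries). WT levels enter both measures. The rho of the log2 fold change was -0.204 with transcript length and 0.028 with the GC content of the transcript. By transcript length, 2 of 3 genes under 1200 bases were called lower, and 6 of 11 at 1200 to 2000 bases. The counts were 21 of 23 at 2000 to 4000 bases and 9 of 9 at 4000 bases or more. Over all tested annotated genes, 10.2%, 17.3%, 24.1% and 25.8% were called lower in these length ranges, in that order. The part of transcript length in the calls was not tested. The 46 genes lie on 17 chromosomes, with at most 6 on any one of them. Their share of all counts was 0.598% to 0.812% in the knockout libraries and 0.96% to 1.4% in the WT libraries.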
